A study of Homo sapiens with 6 samples.

Results

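The lysosome gene set described here holds 45 genes: 17 genes of the vacuolar proton pump and its accessory subunits, 16 hydrolases and hydrolase activators, 9 genes of the lysosomal membrane and of sterol export, and the 3 MiT/TFE transcription factors TFEB, TFE3 and MITF. The members were named by gene symbol, with earlier results of these data known, and all 45 were found, with 1 row each, among 60643 genes in the table. RNA was measured in HCT116, an established human colon cancer cell line that carries a doxycycline-inducible short hairpin RNA against CAPG (the construct is labelled shCAPG-2); CAPG is an actin filament capping protein. The uninduced group had 3 libraries from shCAPG cells without doxycycline, which the labels list as untreated and WT. The induced group had 3 libraries from shCAPG cells given doxycycline at 100 ng/ul for 3 days, which the labels list as CAPG knockdown. All 6 libraries therefore carry the hairpin, and the groups differ in doxycycline as well as in CAPG. Cells given doxycycline without this hairpin were not analysed here, so the drug and the knockdown cannot be told apart. The series title names apoptosis, ferroptosis and the p53 pathway as the subject; it does not name the lysosome. The labels do not say whether the cells were 1 clone or whether the replicates came from separate cultures. The p-values below therefore speak of differences among these 6 libraries, which may be technical.

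Lysosomes are acidified by the vacuolar ATPase, in which a cytosolic V1 sector hydrolyses ATP and turns a rotor that drives protons through the membrane-bound V0 sector. The acid lumen activates proteases, glycosidases and lipases that break down material delivered by endocytosis and autophagy, while heavily glycosylated membrane proteins line the limiting membrane. Many lysosomal genes share a promoter motif, the CLEAR element, that is bound by TFEB, TFE3 and MITF. The activity of these factors is set largely by mTORC1 phosphorylation at the lysosome rather than by their own RNA level.

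Promoter sequence is shown first because that motif is known from many lysosomal genes, though the 45 members were not chosen by it. RefSeq promoter windows (GRCh38.p14, 250 bases before to 50 after each gene's start) were matched by symbol for 36 of the 45 members. No window was matched for ATP6V0E1, ATP6V1A, ATP6V1B2, ATP6V1C1, ATP6V1H, CTSB, HEXA, LAMP2 and PSAP, so their promoters were not examined. The CLEAR core TCACGTGA, which reads the same on both strands and always contains the shorter E-box CACGTG, was present in 6 of the 36 members (16.7%), against 321 of 27305 genes in the promoter table (1.18%) and 2.29% of the expressed genes tested below. The 6 genes were the pump subunits ATP6V0D1 and ATP6V1G1, the hydrolases CTSA and GAA, the membrane glycoprotein LAMP1 and the cation channel MCOLN1. Each motif is shown in a window of 30 bases, 5′ to 3′ on the gene's strand, with the motif in capitals.
ATP6V0D1, minus strand, chr16:67481199-67481228: cccccttatggTCACGTGAggcgcttgcgc
ATP6V1G1, plus strand, chr9:114587699-114587728: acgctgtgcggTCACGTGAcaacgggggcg
CTSA, plus strand, chr20:45891298-45891327: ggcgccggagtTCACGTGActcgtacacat
GAA, plus strand, chr17:80101493-80101522: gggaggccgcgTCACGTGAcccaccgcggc
GAA, plus strand, chr17:80101538-80101567: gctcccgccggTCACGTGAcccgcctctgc
LAMP1, plus strand, chr13:113297199-113297228: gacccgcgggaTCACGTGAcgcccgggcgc
LAMP1, plus strand, chr13:113297226-113297255: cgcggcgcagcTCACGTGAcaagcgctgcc
MCOLN1, plus strand, chr19:7522571-7522600: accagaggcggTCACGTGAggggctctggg
MCOLN1, plus strand, chr19:7522598-7522627: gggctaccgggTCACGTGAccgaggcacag
GAA, LAMP1 and MCOLN1 each held the core in 2 places, and the motifs began between 2 and 77 bases before the start. The shorter E-box CACGTG was found in 11 of the 36 members (30.6%), which added ATP6V0B, ATP6V0E2, CD63, CTSD and NEU1, against 8.77% of genes in the table and 12.6% of the tested genes. A match describes the letters in the window only.

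Expression was given as FPKM, fragments scaled to transcript length and to library size, so levels can be compared between genes. Depth, estimated from the spacing of low values, was 16950000 to 21850000 fragments per library, and 3 fragments on an effective length of 1 kb correspond to 0.137 to 0.177 FPKM. CAPG fell from 57.2 ± 3.75 FPKM to 8.73 ± 1.08 FPKM (SD, n = 3 per group; log2 change -2.59, limma adjusted p = 7.24e-06), with every induced library under every uninduced one. Induced replicate 3 stood apart: its FPKM values summed to 586911, against 521832 to 536037 in the other 5 libraries. It gave the highest value of the 6 in 28.0% of all tested genes and in 21 of the 45 members (46.7%). Of 9 epithelial markers 7 passed the expression filter, with EPCAM at 181 to 263 FPKM, KRT8 at 589 to 802 FPKM and the intestinal factor CDX2 at 4.41 to 6.35 FPKM, while the intestinal markers CDX1 and VIL1 were at or near 0. EPCAM was itself called higher with doxycycline (log2 change 0.34, limma adjusted p = 0.0401), a call kept only when induced replicate 3 was the library left out (otherwise adjusted p up to 0.138), and the other 6 tested did not pass. In bulk RNA, fewer cells of a type and less RNA per cell cannot be told apart.

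All 45 members passed the filter of at least 1 FPKM in at least 3 libraries, and all reached it in every library (lowest value 1.07 FPKM). With doxycycline, 8 members were higher and 5 were lower, and 32 did not pass the test (limma on log2(FPKM + 1), Benjamini-Hochberg adjusted p under 0.05 over 14475 genes). Thus 28.9% of members were called, against 8.46% of all tested genes, of which 3.69% were higher and 4.77% lower. Because the members were chosen with earlier results of these data known, this and the shares below are not a test of the set. Before adjustment, 13 members were higher and 9 lower with p under 0.05, a level met by 27.9% of all tested genes. Among the 41 members with a mean of at least 5 FPKM, 11 were called, against 9.42% of tested genes at that level. The values of the 6 libraries did not overlap between groups in 26 members (57.8%), 14 higher and 12 lower, against 34.5% of all tested genes. The median change was 0.00 for the members and 0.00 for all tested genes, with the middle 50% of all genes between -0.17 and 0.15. The set thus moved in both directions with no shift at its centre. Because 1 was added before taking logs, log2 changes of weakly expressed genes come out smaller than the ratio of their means.

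**Figure D1:**
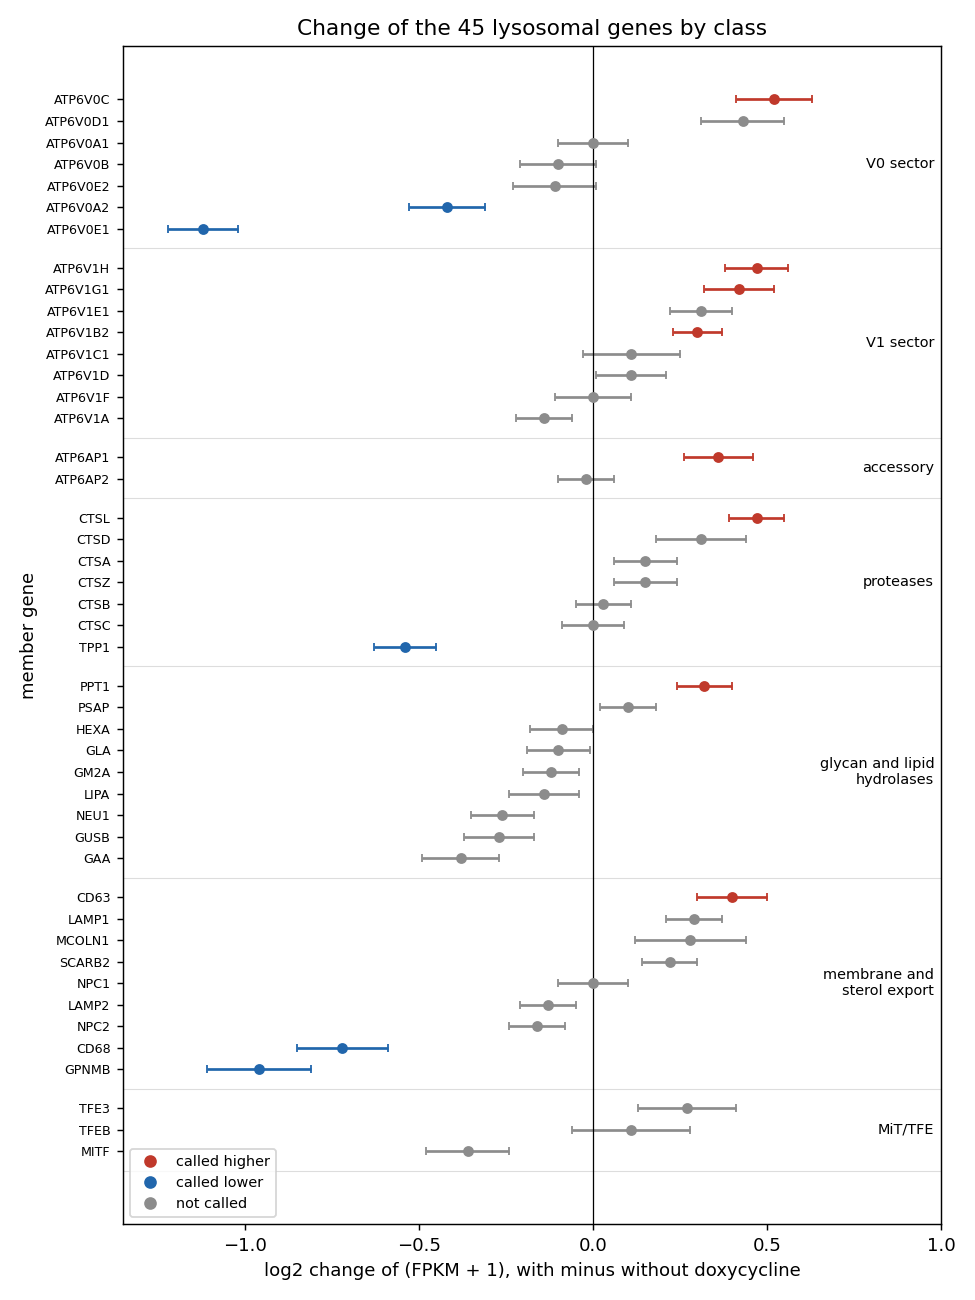
Log2 change of (FPKM + 1), induced minus uninduced, for each of the 45 members, grouped by class on the vertical axis, with bars of 1 SE and colours for whether limma called the gene. The lowest point is ATP6V0E1 at -1.12 and the highest ATP6V0C at 0.52; most members lie near 0.

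On the log2(FPKM + 1) scale the largest change in the set was a fall in ATP6V0E1; by the ratio of means, or with a pseudocount of 0.1 (-1.21 against -1.15), the membrane gene GPNMB fell further. ATP6V0E1 encodes the small e subunit of the V0 membrane sector (ENSG00000113732.9, chr5:172983771-173035445, plus strand, GRCh38 as in the table). It measured 57.3, 51.5 and 56.9 FPKM in the uninduced libraries and 25.0, 22.4 and 27.5 FPKM in the induced libraries. The groups were far apart, with every induced library below every uninduced one. The mean fell from 55.3 ± 3.25 to 25.0 ± 2.60 FPKM (SD, n = 3), so 45.2% of the level was left (log2 change -1.12, SE 0.10, limma adjusted p = 0.0011). ATP6V0E1 ranked 9 of 45 by level in uninduced cells and 26 in induced cells, and only 13 of the 14475 tested genes had a more negative change. Its pseudogene copies ATP6V0E1P1 to ATP6V0E1P4 were at 0 in all 6 libraries.

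The e subunit has a second gene, ATP6V0E2, which measured 21.5, 19.8 and 16.3 FPKM without and 16.9, 16.5 and 19.7 FPKM with doxycycline. These ranges overlapped and the gene did not pass the test (log2 change -0.11, limma adjusted p = 0.593). The share of ATP6V0E1 in the summed FPKM of both genes, which does not depend on library scaling, was 72.7%, 72.3% and 77.8% in uninduced cells and 59.7%, 57.6% and 58.3% in induced cells. The mean share went from 74.3% ± 3.07 to 58.5% ± 1.04, a difference of -15.7 percentage points with no overlap. The two-sided exact permutation test gave p = 0.1, the smallest that 3 against 3 libraries allow. ATP6V0E1 remained the more abundant of the pair in every library.

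The V0 sector also held a rise and a second fall. ATP6V0C, the proteolipid that forms most of the proton-carrying ring (chr16:2513952-2520218, plus strand), measured 87.8, 77.3 and 66.8 FPKM without and 105, 105 and 123 FPKM with doxycycline. All 3 induced libraries were higher than all 3 uninduced ones. The gene rose 1.44-fold, from 77.3 ± 10.5 to 111 ± 10.2 FPKM (log2 change 0.52, SE 0.11, limma adjusted p = 0.0247). It lost its call when uninduced replicate 2 or 3, or induced replicate 2 or 3, was left out (adjusted p up to 0.0871). ATP6V0A2, an a subunit that lines the proton path and is known from the Golgi and endosomes (chr12:123712353-123761755, plus strand), measured 7.69, 8.29 and 6.86 FPKM without and 5.21, 6.06 and 5.01 FPKM with doxycycline. Its groups were also apart, with the induced libraries lower. It fell to 71.3% (log2 change -0.42, SE 0.11, limma adjusted p = 0.0456), and leaving out any 1 of the 6 libraries ended the call (adjusted p 0.0529 to 0.175). It shares 292 exonic bases with an antisense transcript that reached 1.44 FPKM, and without stated strand the reads of the pair cannot be told apart.

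Of the V0 members that did not pass, ATP6V0D1, the central stalk d subunit, came nearest. It measured 24.6, 25.5 and 18.8 FPKM without and 28.5, 32.5 and 32.3 FPKM with doxycycline (log2 change 0.43, limma adjusted p = 0.0564). All induced libraries were above all uninduced ones. ATP6V0A1, the a subunit of lysosomes and synaptic vesicles, was level at 23.1, 19.0 and 21.6 FPKM without and 21.1, 22.8 and 20.0 FPKM with doxycycline. ATP6V0B, the second type of ring proteolipid, changed by -0.10 (limma adjusted p = 0.616). The 7 V0 genes together counted 1 higher and 2 lower (42.9% called, against 8.46% of all tested genes), with a median of -0.10.

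Within the a subunit, ATP6V0A2 made up 14.5%, 19.2% and 17.0% of the summed FPKM of ATP6V0A1, ATP6V0A2, TCIRG1 and ATP6V0A4 in uninduced cells and 13.1%, 13.9% and 10.4% in induced cells. The mean share was 16.9% ± 2.35 without and 12.5% ± 1.83 with doxycycline, with no overlap (exact permutation p = 0.1, two-sided, the smallest possible). The shares of ATP6V0A1 (47.1% and 48.9%, p = 1.0) and of TCIRG1, the a subunit best known from osteoclasts (35.8% and 38.4%, p = 0.7), overlapped in the same exact permutation test. TCIRG1 spread widely within the groups, at 22.2, 15.7 and 11.8 FPKM without and 13.4, 14.6 and 23.1 FPKM with doxycycline. ATP6V0A4, the kidney form, did not exceed 0.188 FPKM.

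**Figure D2:**
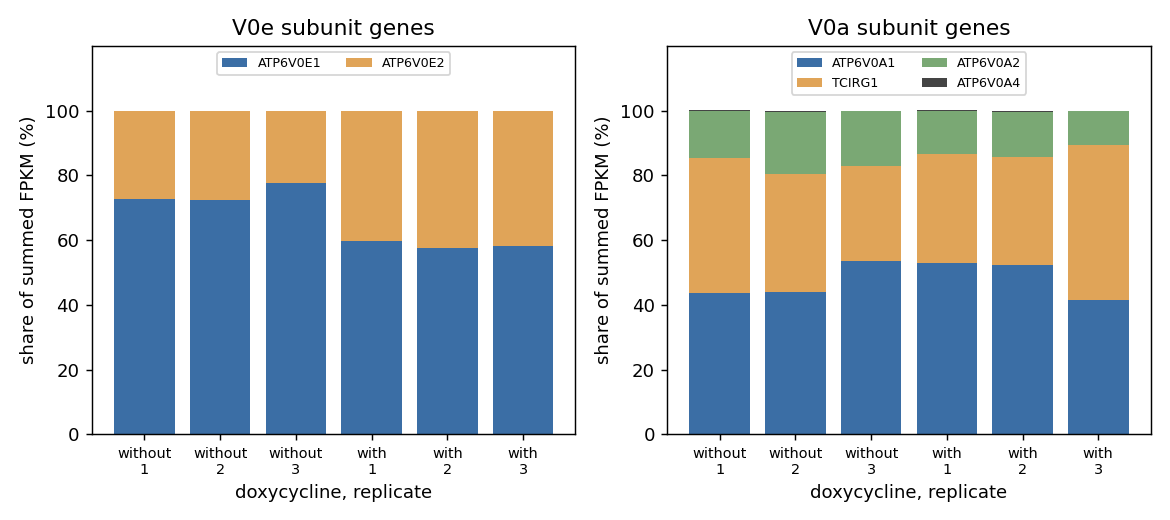
Share of the summed FPKM, in percent, held by each gene of the e subunit and of the a subunit in each of the 6 libraries. ATP6V0E1 holds 72.3% to 77.8% of the e subunit in uninduced and 57.6% to 59.7% in induced cells; among a subunit genes the groups are apart for ATP6V0A2 and overlap for the others.

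In the cytosolic V1 sector, 3 of 8 genes rose and none fell (37.5% called, against 8.46% of all tested genes), with a median change of 0.21. ATP6V1H, the regulatory H subunit (chr8:53715543-53843558, minus strand), measured 21.2, 19.7 and 21.1 FPKM without and 28.0, 27.0 and 32.0 FPKM with doxycycline. The induced libraries were all higher, by 1.40-fold on average (log2 change 0.47, SE 0.09, limma adjusted p = 0.0195). ATP6V1G1, of the peripheral stalk (chr9:114587769-114598879, plus strand), measured 41.1, 42.0 and 47.5 FPKM without and 56.7, 53.2 and 65.8 FPKM with doxycycline. Its groups were apart as well, and it rose 1.35-fold (log2 change 0.42, SE 0.10, limma adjusted p = 0.035). ATP6V1B2, the B subunit of the nucleotide-binding ring (chr8:20197381-20226819, plus strand), measured 35.3, 33.9 and 33.9 FPKM without and 43.0, 42.3 and 42.3 FPKM with doxycycline. Its libraries agreed closely within each group and did not overlap between them. It rose 1.24-fold (log2 change 0.30, SE 0.07, limma adjusted p = 0.036). ATP6V1H lost its call only without uninduced replicate 2 (adjusted p = 0.0888). ATP6V1G1 kept its call only without uninduced replicate 3, and ATP6V1B2 only without induced replicate 3; every other omission ended the call (adjusted p up to 0.129 and 0.158).

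The other V1 genes did not pass. ATP6V1E1, of the peripheral stalk, measured 53.8, 54.9 and 51.0 FPKM without and 59.6, 65.2 and 74.4 FPKM with doxycycline, apart and higher (log2 change 0.31, limma adjusted p = 0.0706). ATP6V1A, the catalytic subunit that pairs with ATP6V1B2 in the ring, measured 28.4, 29.3 and 29.8 FPKM without and 28.1, 26.7 and 24.4 FPKM with doxycycline (log2 change -0.14, limma adjusted p = 0.301). These 2 genes therefore had opposite signs to each other, the former positive and the latter negative, both without a call. ATP6V1C1, which clamps V1 to V0, varied among uninduced libraries, at 31.8, 42.1 and 48.5 FPKM, around induced values of 43.0, 46.6 and 41.3 FPKM. The rotor subunit ATP6V1D changed by 0.11 and shares 269 exonic bases with the abundant antisense gene EIF2S1. The rotor subunit ATP6V1F, the most abundant V1 gene, measured 116, 102 and 90.6 FPKM without and 95.5, 96.2 and 117 FPKM with doxycycline, a change of 0.00. Second genes of the V1 subunits were minor: ATP6V1B2 held at least 98.9% of the B subunit's FPKM in every library, and ATP6V1C1 held 96.2% of the C subunit's in both groups. ATP6V1E2 held 8.05% of the E subunit's FPKM without and 5.29% with doxycycline, and ATP6V1G2 held 2.67% and 1.24% of the G subunit's; in both pairs the groups did not overlap, and these shares were not tested.

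Of the accessory subunits, ATP6AP1, which helps the pump assemble (chrX:154428645-154436516, plus strand), measured 31.8, 28.2 and 25.1 FPKM without and 36.0, 36.5 and 37.3 FPKM with doxycycline. The induced libraries were tightly grouped above the uninduced ones. ATP6AP1 rose 1.29-fold (log2 change 0.36, SE 0.10, limma adjusted p = 0.0477), a call kept only when uninduced replicate 1 was the library left out (otherwise adjusted p up to 0.149). ATP6AP2, also called the prorenin receptor, measured 46.7, 49.7 and 50.6 FPKM without and 49.2, 45.2 and 51.0 FPKM with doxycycline. It changed by -0.02 (limma adjusted p = 0.917). Over the 17 pump genes, 5 rose and 2 fell (41.2% called, against 8.46% of all tested genes), with a median of 0.11. Their summed FPKM was 724, 700 and 678 without and 728, 730 and 821 with doxycycline. The highest sum belonged to induced replicate 3.

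**Figure D3:**
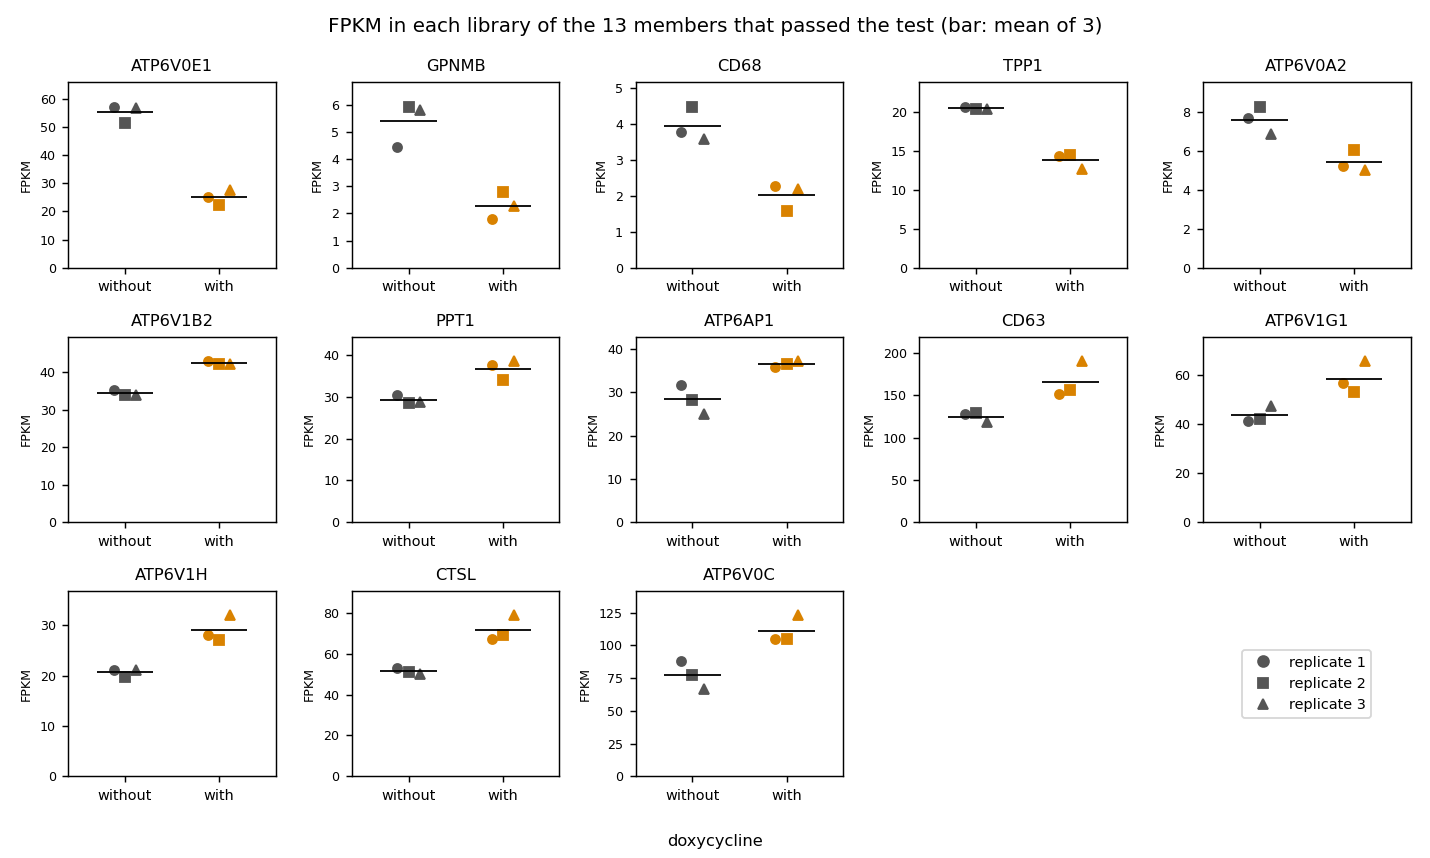
FPKM in each library for the 13 members that passed the test, 1 panel per gene, with the 3 uninduced libraries left, the 3 induced libraries right and a bar at each mean. The vertical axes start at 0 and differ between panels; in every panel the groups do not overlap.

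Among the 7 proteases, 1 rose and 1 fell (28.6% called, against 8.46% of all tested genes). TPP1, a lysosomal serine peptidase that removes tripeptides (chr11:6612768-6619448, minus strand), measured 20.7, 20.4 and 20.4 FPKM without and 14.3, 14.5 and 12.7 FPKM with doxycycline. Uninduced values were nearly equal and all lay well above the induced ones. TPP1 fell from 20.5 ± 0.168 to 13.8 ± 0.949 FPKM (67.4% left; log2 change -0.54, SE 0.09, limma adjusted p = 0.00876). CTSL, the cysteine protease cathepsin L (chr9:87726109-87731469, plus strand), measured 53.1, 50.8 and 49.9 FPKM without and 66.9, 69.2 and 78.7 FPKM with doxycycline. Every induced library was higher, and CTSL rose 1.40-fold (log2 change 0.47, SE 0.08, limma adjusted p = 0.0149). Without uninduced replicate 2 its call was lost (adjusted p = 0.0719). All CTSL pseudogene copies in the table were at 0.

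The other 5 proteases did not pass. The aspartic protease CTSD measured 44.0, 41.9 and 33.1 FPKM without and 44.0, 46.9 and 57.4 FPKM with doxycycline (log2 change 0.31, limma adjusted p = 0.155). Its groups touched at 44.0 FPKM, and it shares 1304 exonic bases on the same strand with a gene at about 1 FPKM. CTSB, cathepsin B, was the most abundant protease and stayed near its level, at 110, 104 and 97.8 FPKM without and 105, 101 and 113 FPKM with doxycycline (log2 change 0.03). CTSC, which activates granule serine proteases, changed by 0.00. CTSZ, a carboxypeptidase, and CTSA, which protects the sialidase NEU1, each changed by 0.15 without overlap between groups and without a call (limma adjusted p = 0.299 and 0.311).

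The 9 glycan and lipid hydrolases and their activators held 1 rise and no fall, although 7 of the 9 had a negative change (median -0.12). The share called, 11.1%, was near the 8.46% of all tested genes. PPT1, which removes palmitate from proteins (chr1:40072710-40097260, minus strand), measured 30.4, 28.5 and 28.8 FPKM without and 37.5, 34.0 and 38.6 FPKM with doxycycline. The groups were apart, and PPT1 rose 1.25-fold (log2 change 0.32, SE 0.08, limma adjusted p = 0.0456). Leaving out any 1 library ended that call (adjusted p 0.0728 to 0.174). GAA, the acid alpha-glucosidase that digests glycogen, measured 25.1, 19.7 and 19.5 FPKM without and 15.8, 16.0 and 16.6 FPKM with doxycycline, apart and lower but outside the threshold (log2 change -0.38, limma adjusted p = 0.0597). The sialidase NEU1 measured 16.0, 15.8 and 14.6 FPKM without and 12.5, 11.9 and 13.8 FPKM with doxycycline (log2 change -0.26, limma adjusted p = 0.102). Its groups were likewise apart and lower. GUSB, the beta-glucuronidase, changed by -0.27 (limma adjusted p = 0.129), and 5 of its pseudogene copies reached 1 FPKM, the highest being GUSBP11 at 7.08 FPKM, so its value is uncertain. The remaining 5 were the galactosidase GLA at -0.10, the hexosaminidase subunit HEXA at -0.09, the acid lipase LIPA at -0.14, the ganglioside activator GM2A at -0.12 and PSAP, the saposin precursor, at 0.10. PSAP was the most abundant of all 45 members in both groups, at 184, 168 and 161 FPKM without and 179, 176 and 196 FPKM with doxycycline, which overlapped.

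Among the 9 membrane genes, 1 rose and 2 fell (33.3% called, against 8.46% of all tested genes). GPNMB, a glycoprotein of melanosomes and lysosomes (chr7:23235967-23275108, plus strand), measured 4.44, 5.93 and 5.81 FPKM without and 1.81, 2.79 and 2.26 FPKM with doxycycline. All induced libraries were lower. GPNMB fell from 5.40 ± 0.827 to 2.29 ± 0.487 FPKM (42.4% left; log2 change -0.96, SE 0.15, limma adjusted p = 0.00752). CD68, a glycoprotein abundant in macrophages (chr17:7579491-7582111, plus strand), measured 3.78, 4.48 and 3.57 FPKM without and 2.26, 1.57 and 2.20 FPKM with doxycycline. These groups were apart too, and 51.0% of the level was left (log2 change -0.72, SE 0.13, limma adjusted p = 0.0167). The call was lost without uninduced replicate 2 or induced replicate 2 (adjusted p up to 0.0733). CD68 shares 1789 exonic bases on the same strand with a gene at 1.24 to 1.63 FPKM that changed by -0.04. It shares 150 with an antisense gene at 5.65 to 7.18 FPKM that changed by -0.08. Neither of these genes passed the test. With same-strand sharing, and no stated strand for the antisense gene, reads on these bases cannot be told apart. The value of CD68 is therefore uncertain.

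Markers of other cells that use these 2 genes were measured beside them. None of 9 macrophage and leukocyte markers passed the expression filter; their summed FPKM was 0.809 to 2.2 without and 0.982 to 1.43 with doxycycline, AIF1 was at 0 in every library and PTPRC in 4 of 6. Of 7 melanocyte and osteoclast markers, TYR and OCSTAMP were at 0 throughout and 2 passed the filter. MLANA (mean 0.269 FPKM without and 0.681 with doxycycline), DCT (0.41 and 0.178) and ACP5 (0.112 and 0.153) did not pass it. Their directions differed, and they were not tested. PMEL, a structural protein of melanosomes, measured 4.06, 4.29 and 4.69 FPKM without and 2.82, 2.40 and 2.47 FPKM with doxycycline (log2 change -0.58, limma adjusted p = 0.0166), lower in all induced libraries, and lost its call without uninduced or induced replicate 2 (adjusted p up to 0.0681). CTSK, the osteoclast cathepsin, was higher, at 3.60, 3.77 and 4.39 FPKM without and 5.18, 5.40 and 6.14 FPKM with doxycycline (log2 change 0.42, limma adjusted p = 0.049), a call that no omission of 1 library kept (adjusted p 0.0529 to 0.161).

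CD63, a tetraspanin of late endosomes and exosomes (chr12:55725323-55729707, minus strand), was the membrane gene that rose. It measured 128, 129 and 118 FPKM without and 152, 156 and 191 FPKM with doxycycline, with induced replicate 3 well above the rest. It rose 1.33-fold (log2 change 0.40, SE 0.10, limma adjusted p = 0.041), and lost its call without any 1 of the uninduced libraries or without induced replicate 2 (adjusted p up to 0.113). LAMP1, a major glycoprotein of the lysosomal membrane, measured 69.6, 65.9 and 64.3 FPKM without and 77.4, 78.5 and 88.7 FPKM with doxycycline, apart and higher but not called (log2 change 0.29, limma adjusted p = 0.0618). Its relative LAMP2, which also serves chaperone-mediated autophagy, was 19.0, 20.3 and 19.6 FPKM without and 18.2, 18.2 and 17.4 FPKM with doxycycline (log2 change -0.13, limma adjusted p = 0.338). The pair thus had opposite signs, neither passing the test. SCARB2, the receptor that carries glucocerebrosidase to lysosomes, changed by 0.22 and the calcium channel MCOLN1 by 0.28 (limma adjusted p = 0.108 and 0.268). The sterol exporters NPC1 and NPC2 changed by 0.00 and -0.16 (limma adjusted p = 0.991 and 0.23); NPC1 shares 604 exonic bases with RMC1 and NPC2 shares 103 with ISCA2.

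None of the 3 MiT/TFE factors passed the test. TFEB measured 2.68, 2.13 and 1.63 FPKM without and 2.01, 3.08 and 2.09 FPKM with doxycycline, and the groups overlapped (log2 change 0.11, limma adjusted p = 0.721). TFE3, the most abundant of the 3, measured 8.94, 5.96 and 6.06 FPKM without and 8.03, 8.51 and 8.91 FPKM with doxycycline, with uninduced replicate 1 as high as the induced libraries (log2 change 0.27, limma adjusted p = 0.254). MITF, the lowest of the 45 members, measured 2.03, 1.80 and 1.89 FPKM without and 1.39, 1.07 and 1.35 FPKM with doxycycline. Its groups were apart and lower, short of the threshold (log2 change -0.36, limma adjusted p = 0.0937). No promoter was matched for ATP6V0E1, called lower, or for ATP6V1B2 and ATP6V1H, called higher. Of the members with a matched promoter, the CLEAR core shown above was in 1 of 6 called higher (ATP6V1G1), 0 of 4 called lower and 5 of 26 not called. The 5 were ATP6V0D1, CTSA, LAMP1 and MCOLN1, with positive changes, and GAA, with a negative one.

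A wider list of 110 other lysosome genes gave the setting for the 45. Of its 99 tested genes, 1 rose and 8 fell, with a median of -0.01. The share called, 9.09%, was near the 8.46% of all tested genes, so the count says nothing particular about the list. The falls included 4 of 18 other membrane proteins and transporters (22.2%). SLC17A5, which exports sialic acid from lysosomes, measured 15.9, 15.1 and 16.9 FPKM without and 7.40, 7.48 and 7.46 FPKM with doxycycline. The induced libraries were nearly identical and far below the uninduced ones (log2 change -1.01, SE 0.09, limma adjusted p = 0.0011). TPCN1, a two-pore channel, also fell (log2 change -0.79, limma adjusted p = 0.0126), as did the chloride-proton exchanger CLCN7 (-0.83, adjusted p = 0.0234) and the proton and potassium channel TMEM175 (-0.70, adjusted p = 0.0285). CLCN7 lost its call in 4 and TMEM175 in 5 of the 6 fits that left out 1 library (adjusted p up to 0.0761 and 0.0794), and TPCN1 in none.

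The other falls lay in separate lists. RRAGA, a Rag GTPase that docks mTORC1 at the lysosome, fell from 34.5, 33.5 and 30.9 FPKM to 19.9, 22.1 and 24.2 FPKM (log2 change -0.56, limma adjusted p = 0.0117), with no overlap, and was called in every fit except that without uninduced replicate 2 (adjusted p = 0.0557). VMA21, an assembly factor of the V0 sector, fell by 0.40 on the log2 scale, the sialic acid esterase SIAE by 0.55 and the sorting adaptor GGA1 by 0.34 (limma adjusted p = 0.0259, 0.0208 and 0.0479). These 3 calls were lost in 5, 3 and 5 of the 6 fits that left out 1 library (adjusted p up to 0.0978, 0.0719 and 0.177). The only rise was SMPD1, the acid sphingomyelinase, at 3.97, 4.27 and 2.62 FPKM without and 8.88, 7.08 and 5.87 FPKM with doxycycline. Its groups were apart and the mean was 2.01-fold higher (log2 change 0.84, SE 0.17, limma adjusted p = 0.0228), a call lost without uninduced replicate 1 or 3 or induced replicate 1 or 2 (adjusted p up to 0.0549). No gene passed among 4 tested other pump genes and 18 tethering genes, with medians of 0.06 and 0.04.

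**Figure D4:**
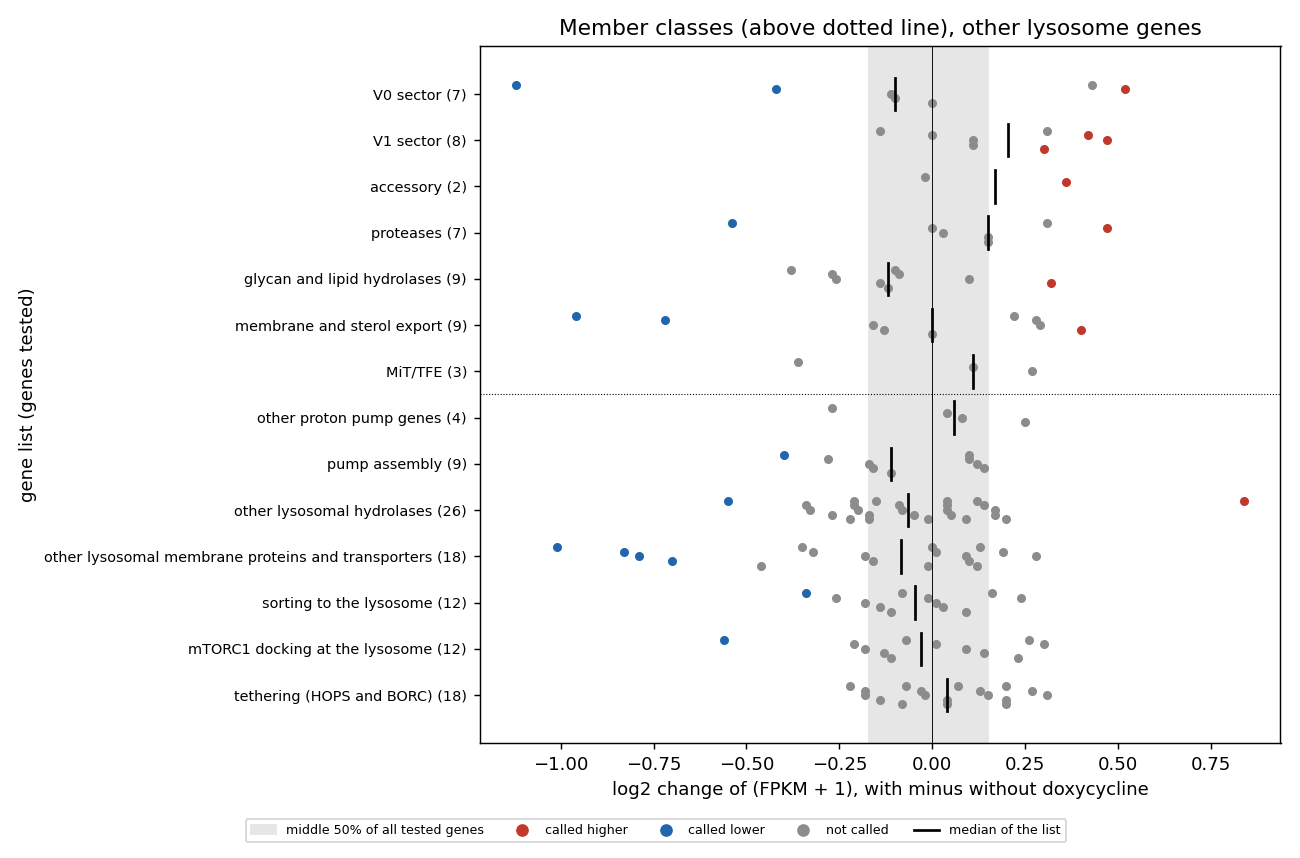
Log2 change of (FPKM + 1), induced minus uninduced, for each tested gene of the 7 member classes (above the dotted line) and of 7 lists of other lysosome genes (below), with a black bar at each list's median and the middle 50% of all tested genes shaded. The medians run from -0.12 in the glycan and lipid hydrolases to 0.21 in the V1 sector, and SMPD1 is the single higher call among the other lysosome genes.

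The calls differed in how far they rested on single libraries. ATP6V0E1, GPNMB and TPP1 were called in all 6 fits that left out 1 library, with adjusted p at most 0.0106, 0.0316 and 0.0488 (limma). The other 10 called members each lost the call in at least 1 such fit. Without uninduced replicate 2, no member was called higher and 3 were called lower (85 and 157 of all tested genes). Without induced replicate 3, the counts were 4 higher and 4 lower (403 and 597 of all tested genes). Calls among all tested genes thus fell as well, from 534 higher and 691 lower with all 6 libraries. Of the 8 members that rose, 7 had their highest value in induced replicate 3, the library with the largest FPKM sum; its part in the result was not tested. The other 2 induced libraries were also above all uninduced ones in each of the 8 genes. Those genes were picked by these same values, so that is no separate support. Without induced replicate 3, ATP6V0C, ATP6V1G1, ATP6AP1 and PPT1 were not called. After scaling all libraries to equal totals, ATP6V1B2, ATP6AP1 and PPT1 were no longer called (limma adjusted p = 0.0701, 0.0641 and 0.0602) and the other 5 rises were.

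**Figure D5:**
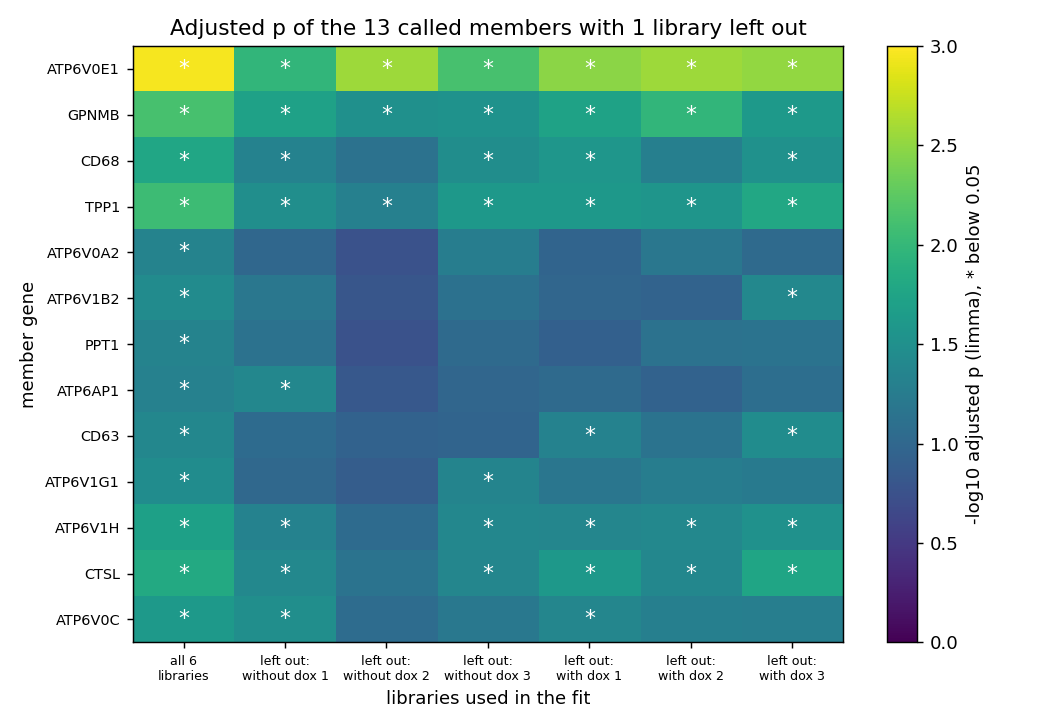
Adjusted p on a -log10 scale (limma) for the 13 called members, in the fit of all 6 libraries and in the 6 fits that each left out 1 library, with an asterisk where it is under 0.05. Only the rows of ATP6V0E1, GPNMB and TPP1 hold asterisks throughout, and the column without uninduced replicate 2 holds the fewest.

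Genes within 200 kb of ATP6V0E1 changed in both directions, and a shared regional change was not tested. Of 5 tested, ERGIC1, an endoplasmic reticulum to Golgi cargo protein, fell (28.5 to 20.9 FPKM, log2 change -0.42, limma adjusted p = 0.0242) and RPL26L1, a ribosomal protein paralog, rose (25.7 to 34.4 FPKM, log2 change 0.41, adjusted p = 0.0236). BNIP1, CREBRF and AC008429.2 changed by 0.23, 0.02 and -0.03 and did not pass. Within 200 kb of GPNMB, 5 genes were tested, of which IGF2BP3 was called (log2 change -0.35, limma adjusted p = 0.0398) and the others were not. Near CD68, 21 were tested, of which TMEM256 was called (log2 change -0.77, limma adjusted p = 0.0165) and the others were not. Near TPP1, 11 were tested and no gene passed. For comparison, 8.46% of all tested genes were called.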

How the data were processed

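The deposited FPKM values of 60643 genes in 6 libraries were used. The submitters' processing notes name Bowtie, BWA, STAR, Cufflinks, RSEM and kallisto; which of them the authors used for these values is not stated, nor whether strand was counted. Unit and scale were read from the values and column names. The notes name hg19, but 39321 of 39331 gene IDs shared with GENCODE 29 have its GRCh38 loci, so coordinates are given as in the table on GRCh38.

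The 14475 genes that reached 1 FPKM in 3 or more libraries were tested on log2(FPKM + 1) with limma 3.58.1 (R 4.3.3; trended, robust empirical Bayes, two-sided, Benjamini-Hochberg over all tested genes, threshold 0.05). Shares were tested with exact permutation tests (scipy 1.17.1). The limma step was tested on simulated data. Alternatives were another pseudocount (0.1), other filters, scalings, a length and GC correction, a constant prior, a replicate block and leaving out each library. Depth was estimated from 3647 single-exon genes, since no counts were used.

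The members and lists were chosen with earlier results of these data known. Values are given for every called member, the extremes of each class and the MiT/TFE factors. For the called genes of the other lists, changes are given, with library values for SLC17A5, RRAGA and SMPD1. The count at 5 FPKM was added after seeing the data. The members whose neighbours are given were also chosen after their values were seen.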

Additional observations from a re-analysis of the deposited data

How the results depend on the processing

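CAPG and the share of ATP6V0E1 kept direction throughout: CAPG ranged from -2.70 to -2.53 on the log2 scale, and the e subunit shares moved by 14.0 to 16.7 percentage points in size, down for ATP6V0E1 (-16.7 to -14.0) and up for ATP6V0E2. With 1 library left out, the share difference ranged from -5.62 to -3.27 points for ATP6V0A2, from -0.158 (without induced replicate 1) to 5.56 for ATP6V0A1 and from -2.2 to 5.53 for TCIRG1, whose sign turned without uninduced replicate 3 (-0.678) or induced replicate 3 (-2.2). Against 8 members higher and 5 lower (534 and 691 of all genes), fits that left out 1 library called 0 to 4 and 3 to 4 (85 to 403 and 157 to 597). Without a filter on low values, 32367 genes were tested, and 0 members were higher and 2 lower (53 and 100 of all genes), the 2 being ATP6V0E1 and TPP1. A constant, non-robust prior called 3 members higher (354 of all genes). A length and GC correction called 1291 genes higher and 1050 lower, so that 55.1% of calls were higher against 43.6%; it kept all 13 calls and added ATP6V0D1, ATP6V1E1, CTSD, GAA and LAMP1. Median-of-ratios scaling (622 genes higher and 753 lower) also kept all 13 calls and added ATP6V0D1, GAA and LAMP1. Scaling to equal totals (454 and 887) added GAA and LAMP1. The filter at a mean of 5 FPKM (609 and 605) added ATP6V0D1 and GAA and left out CD68 and GPNMB. Quantile normalization (616 and 703) ended the call of ATP6V0A2 (limma adjusted p = 0.0529) and added NPC2 as lower (limma adjusted p = 0.0346). The cause of these differences was not tested.

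Same-numbered libraries did not deviate together (correlations of -0.04, 0.01 and -0.02), and no library correlated best with its own number. With a replicate block, 0 members were higher and 2 lower, ATP6V0E1 and GPNMB (69 and 142 of all genes). Depth was only estimated, so the level given for 3 fragments is approximate.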
